A study of Mus musculus with 4 samples.

Results

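Peripherin and the neurofilament subunits are the intermediate filament proteins of nerve cells, and their 5 genes are Prph, Nefl, Nefm, Nefh and Ina. They were found by symbol among the 28168 loci of a deposited table from sorted mature olfactory sensory neurons of mice. Each symbol matched a single locus, and all 5 loci were tested by the authors. RNA was sequenced in 4 libraries, 2 of each group. Both Nd1 libraries came from mice of genotype Nd1+/-, OMP-IRES-tTA+/- and OMP-IRES-GFP+/-, one library at 212 days of age and one at 87 days. The control at 212 days was Nd1+/- and OMP-IRES-GFP+/- but OMP-IRES-tTA-/-, and the control at 87 days was Nd1-/-, OMP-IRES-tTA+/- and OMP-IRES-GFP+/-. All 4 libraries thus share the GFP allele, and each control lacks a different element of the pair that Nd1 mice carry. By its title the series concerns transgenic mice that make double-stranded RNA (dsRNA) from a genomic insertion, and its design text describes the lines as neurodegenerative. Neither what drives the Nd1 insertion nor the number of mice behind each library is stated in the labels. The table holds 1 FPKM value per group, that is fragments per kilobase of transcript, scaled to the number of mapped fragments, with the libraries of a group pooled by the authors. Values of single libraries, their spread and their depth can therefore not be given, and the ages and control genotypes cannot be told apart. Every call is the authors', from Cuffdiff at a q-value under 0.05, and only loci that passed it are said to have risen or fallen.

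Neurofilaments are heteropolymers that fill axons and set their calibre. Nefl, the light subunit, makes the core of the filament, while Nefm and Nefh, the medium and heavy subunits, add long phosphorylated tails that project from it. Ina (alpha-internexin) joins them mainly in the central nervous system, and Prph (peripherin), which can also assemble by itself, joins them mainly in peripheral neurons. Peripherin is known to be made in greater amounts by neurons after axon injury, and neurofilament light protein in body fluids serves as a marker of axon damage. The axons of olfactory sensory neurons are thin and unmyelinated.

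Prph, Nefm and Nefh were higher in Nd1, and Nefl and Ina did not pass the threshold. That is 3 of 5 genes higher and none lower, where 15.1% of all 14841 tested loci were higher and 19.2% were lower, or 34.4% called in either direction. The unadjusted Cuffdiff p-values of Nefl and Ina were 0.959 and 0.675 in the authors' deposited table. All 3 also passed at q under 0.01 (12.2% of tested loci higher) and with a change of at least 2-fold (7.09%). Among loci whose mean over the groups was at least 1 FPKM (14.9% higher), Prph and Nefh were called, Nefm lying just below that limit. The genes differ widely in level. In control, Prph stood at 21.5 FPKM and Ina at 12.9, while the neurofilament subunits Nefh, Nefl and Nefm lay at 0.962, 0.782 and 0.366 FPKM. In Nd1 the order was Prph at 217 FPKM, Ina at 12.3, Nefh at 2.87, Nefm at 1.62 and Nefl at 0.772. The order thus differed only at its lower end, where Nefm and Nefl changed places. Without a spread per group, it cannot be said which neighbours in either order differ.

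**Figure D1:**
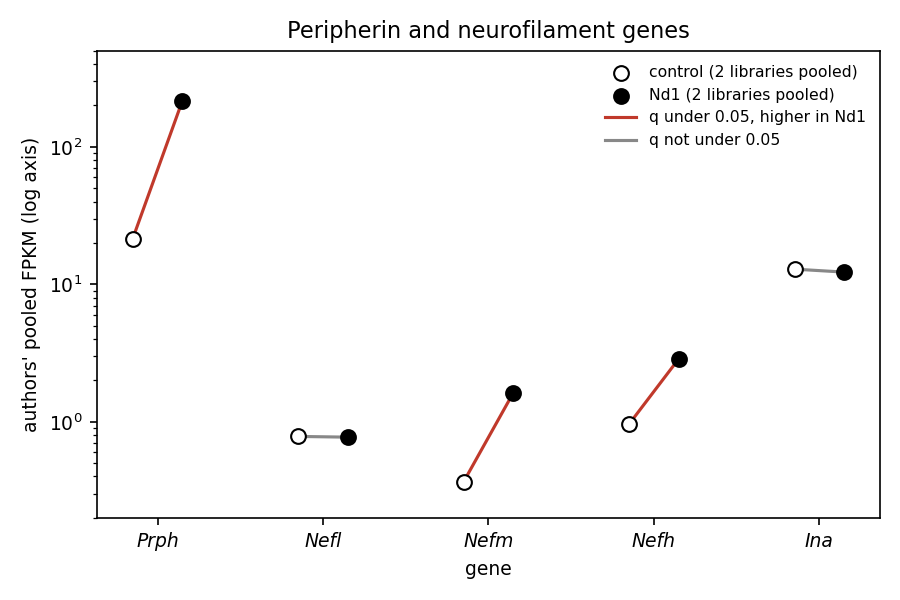
Pooled FPKM of the 5 genes in control (open circles) and Nd1 (filled circles) on a log axis, each group being a single value made from 2 libraries. Prph went from 21.5 to 217 FPKM, Nefm from 0.366 to 1.62 and Nefh from 0.962 to 2.87 (red lines, q under 0.05), while the lines of Nefl and Ina are nearly flat (grey, q not under 0.05).

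Prph rose most. Its pooled level was 21.5 FPKM in control and 217 FPKM in Nd1, a 10.1-fold higher level, with a log2 fold change of 3.33 and a q listed as 0 in the authors' deposited table. The locus lies on mm9 chromosome 15, 98885605 to 98889409, and spans 3.81 kb. By level it ranked 3916th of all loci in control and 157th in Nd1. As a difference in FPKM its rise of 195 was the 9th largest among tested loci. As a ratio with a pseudocount of 1 it was the 35th largest, at 3.27 on the log2 scale. Among the 462 tested loci of at least 100 FPKM in Nd1, 106 rose, and 6 of them by 10-fold or more. The 6 were Prph, Nov, B2m, the joined locus of H2-D1 and LOC547349, Olfm4 and Lgals3bp. Both limits and these names were chosen after the values were seen. Prph2, the photoreceptor gene also called peripherin, is unrelated to the filament protein. It was not tested, with 0.029 FPKM in control and 0.024 in Nd1.

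Prph and Ina are the most abundant of the 5, and a single one of them rose, so the DNA just before their start sites is shown for comparison. Promoter entries from RefSeq on build GRCm38.p6 were at hand for these 2 of the 5 genes. Each run holds the 250 bases before the annotated start, on the plus strand, at chr15:99054924-99055173 for Prph and chr19:47014431-47014680 for Ina. Capitals mark matches to the motifs searched.
Prph: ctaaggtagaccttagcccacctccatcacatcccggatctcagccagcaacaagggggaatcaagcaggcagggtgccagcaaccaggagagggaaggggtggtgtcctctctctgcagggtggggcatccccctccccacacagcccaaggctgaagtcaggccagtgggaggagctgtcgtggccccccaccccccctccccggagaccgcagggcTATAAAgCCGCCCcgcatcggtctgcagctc
Ina: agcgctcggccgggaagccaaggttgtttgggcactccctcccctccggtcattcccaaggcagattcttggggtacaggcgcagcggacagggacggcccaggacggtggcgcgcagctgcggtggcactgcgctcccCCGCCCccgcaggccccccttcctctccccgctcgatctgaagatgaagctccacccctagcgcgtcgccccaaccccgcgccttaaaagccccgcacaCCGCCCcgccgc
Letters of 5 motifs were searched for on both strands, and no 2 matches overlapped. The TATA box TATAAA, where the transcription machinery is placed, begins 31 bases before the start of Prph. These exact letters were not found in the run of Ina, and variants of the box were not searched for. The letters TATAAA occur in 12.4% of the 32851 promoter runs of the same length. The GC box GGGCGG, bound by Sp1, was found as its reverse complement, 24 bases before the start of Prph and 111 and 12 bases before that of Ina. It occurs in 32.7% of runs. No match to the interferon response element core GAAANNGAA (7.13% of runs), the STAT site TTCNNNGAA (7.02%) or the EBF site CCCNNGGGA (5.6%) was found in either run. The GC content was 65.2% in the run of Prph and 70.8% in that of Ina, beside a median of 52.4% over all runs. A match describes letters, and no binding was measured here.

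The neurofilament subunits were scarce in these neurons, and Nefm and Nefh passed the threshold while Nefl did not. Nefm, the medium subunit, went from 0.366 FPKM in control to 1.62 in Nd1, a 4.43-fold higher level, with a log2 fold change of 2.15 and q = 2.13e-08 in the authors' deposited table. Its locus is on mm9 chromosome 14, 68737602 to 68749421. Nefh, the heavy subunit, went from 0.962 to 2.87 FPKM, which is 2.98-fold higher, with a log2 fold change of 1.58 and q = 1.09e-08 in the authors' deposited table. It belongs to a locus on mm9 chromosome 11, 4838759 to 4942732. Nefl, the core subunit, had 0.782 FPKM in control and 0.772 in Nd1, with a log2 fold change of -0.018 and q = 0.978 in the authors' deposited table. Its locus is on mm9 chromosome 14, 68701941 to 68705794. Nefl and Nefm are neighbours, 31.8 kb apart in the table. Whether the changes of Nefm and Nefl differ was not tested, since that needs values per library.

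The balance among the subunits is seen in their ratios of FPKM, which is a level per length. In control, Nefl stood 2.14-fold above Nefm, whereas in Nd1 Nefm stood 2.10-fold above Nefl. Nefh exceeded Nefl 1.23-fold in control and 3.72-fold in Nd1. Summed over the 3 subunits, the level was 2.11 FPKM in control and 5.27 in Nd1. Nefl had the lowest value of the 3 in Nd1, and Nefm had the lowest in control. Without a spread per group, it cannot be said whether these orders hold, and filament assembly was not measured.

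Reads of other genes may enter some of these values. In RefSeq, Nefm overlaps the non-coding gene A230070E04Rik over 1.25 kb, and the table lists both with the same bounds. A230070E04Rik also rose, from 0.859 to 2.59 FPKM (q = 0.000134 in the authors' deposited table). Nefh overlaps Ap1b1, an adaptor complex subunit, over 0.745 kb, and Ap1b1, at 25.4 FPKM in control and 30.9 in Nd1, was listed without passing the threshold. Ina overlaps Nt5c2, a cytosolic nucleotidase, over 0.494 kb, and Nt5c2 fell from 28.2 to 21.6 FPKM. No source used here states that strand was kept, so reads in these overlaps cannot be told apart, and the part of the partners in the values was not tested. Prph and Nefl share their listed bounds with no other locus.

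Ina, alpha-internexin, had close values in the groups. Its level was 12.9 FPKM in control and 12.3 in Nd1, with a log2 fold change of -0.072 and q = 0.801 in the authors' deposited table. Its listed locus is on mm9 chromosome 19, 46961321 to 47098836, bounds that it shares with Nt5c2. By level it ranked 6003rd of all loci in control and 6087th in Nd1, so that 78.7% and 78.4% of loci lay below it.

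Prph made up 58.9% of the summed FPKM of the 5 genes in control and 92.5% in Nd1. Ina made up 35.3% in control and 5.24% in Nd1. The 3 neurofilament subunits together made up 5.78% and 2.25%. The summed level of all 5 was 36.5 FPKM in control and 234 in Nd1, and Prph accounts for 98.7% of that difference. Without Prph the sum was 15.0 FPKM in control and 17.5 in Nd1. The ratio of Prph to Ina was 1.67 in control and 17.7 in Nd1.

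**Figure D2:**
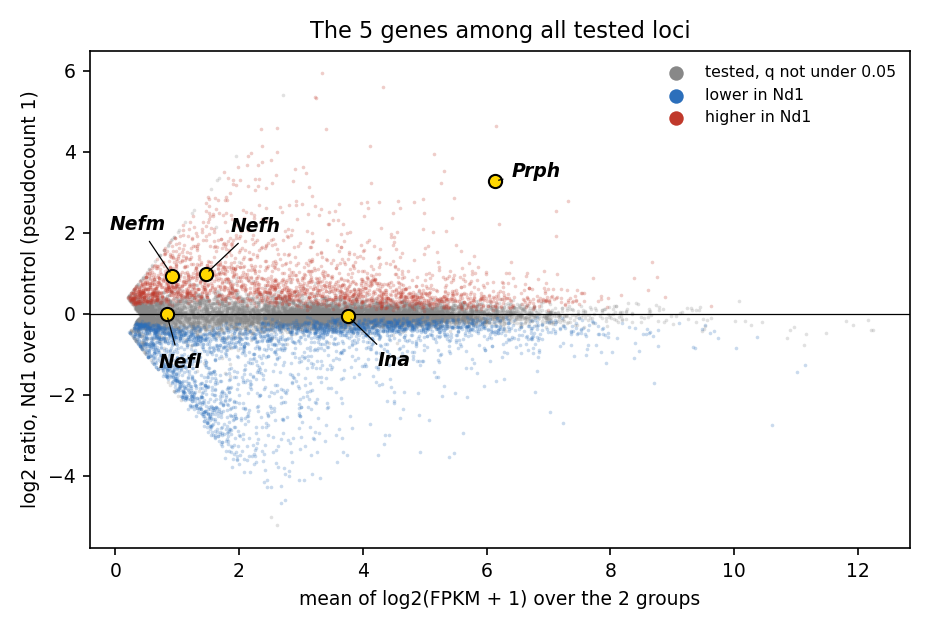
Log2 ratio of Nd1 over control (pseudocount 1) against the mean of log2(FPKM + 1) for every locus the authors tested, coloured by the authors' call at q under 0.05, with the 5 genes in gold. Prph at 3.27 stands above nearly all loci of like level, Nefm at 0.94 and Nefh at 0.98 lie among the low-level loci that rose, and Nefl and Ina lie on the zero line.

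FPKM is relative to all mapped fragments, and much of the RNA changed between the groups. The ratios were therefore taken again after 5 other scalings. Of these, 4 multiply every Nd1 value by a common factor, which lay between -0.11 and 0.14 on the log2 scale. Quantile normalization moves each locus by its own amount, and the median tested locus by 0.058. With a pseudocount of 1, the log2 ratio of Prph lay between 3.17 and 3.41. That of Nefm lay between 0.88 and 1.07 and that of Nefh between 0.90 and 1.13. Those of Nefl (-0.053 to 0.14) and Ina (-0.16 to 0.066) changed sign with the scaling, so no direction is given for them. Of all tested loci, 99.8% had a smaller ratio than Prph, 96.0% a smaller one than Nefh and 95.8% a smaller one than Nefm. For Nefl and Ina these shares were 57.0% and 48.7%, near the middle of the distribution.

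The tested genes closest to each risen member in the plane of its control and Nd1 levels were listed, with distance measured on the log2(FPKM + 1) scale over the 2 group values. Closest to Prph were Fam13b (32.9 to 157 FPKM, distance 0.75), B2m (13.3 to 352, distance 0.96) and Hddc3 (15.6 to 119, distance 0.96), so no gene lay very near it. B2m is the light chain of the class I antigen-presenting complex. Closest to Nefm were Hddc2, Chia, a chitinase, and the transporter gene Abca8b, all within a distance of 0.072. Closest to Nefh were Sulf2, an extracellular sulfatase, Usp11, a deubiquitinase, and BC026585, within 0.082. With only 2 values per gene, many genes share such a pattern.

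Genes of the wider filament system were then counted in 9 lists. Of 88 distinct genes tested, 25 (28.4%) rose and 16 (18.2%) fell, beside 15.1% and 19.2% of all tested loci. In the list of axonal microtubules and membrane skeleton 12 of 19 tested genes rose and 1 fell, with a median log2 ratio of 0.75 beside -0.058 over all tested loci. That list thus held 12 of the 25 rises. Map2, a dendritic microtubule-associated protein listed in the table as Mtap2, rose from 8.54 to 52.4 FPKM. The tubulins Tubb2b and Tubb2a rose from 14.1 to 63.6 and from 10.5 to 41.3 FPKM, and near-identical tubulin genes can share reads. Basp1, a growth cone membrane protein, rose from 2.04 to 8.73 FPKM. The single fall was that of the stathmin Stmn4, from 137 to 96.7 FPKM.

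The other intermediate filaments split. Of 8 tested outside the 5 genes and the keratins, 2 rose and 2 fell. Vim, the vimentin gene, which like Prph encodes a type III filament protein, rose from 4.05 to 14.9 FPKM (q = 4.11e-15 in the authors' deposited table). Bfsp2, a lens filament gene, rose from 0.071 to 0.587 FPKM. Of the falls, one was that of the nuclear lamin Lmnb2 (17.1 to 13.3 FPKM) and the other that of Iffo1 (18.7 to 15.9 FPKM). Des, Gfap and Nes, the filament genes of muscle, glia and neural stem cells, were under 0.05 FPKM in each group and were not tested. Keratins, the filaments of epithelial cells, moved the other way, with 7 of 9 tested lower and 1 higher, and a median log2 ratio of -0.61. Krt7 fell from 4.79 to 2.03 FPKM, Krt5 from 8.03 to 3.86, Krt18 from 15.5 to 8.97 and Krt17 from 2.30 to 1.10. The rise was that of Krt10, from 3.34 to 5.62 FPKM.

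Genes that link, move, modify or remove filaments gave a few calls in each list. Of all tested loci 15.1% rose and 19.2% fell. Whether any of these small lists, or those that follow, differs from such shares was not tested. Among linkers, which tie filaments to other cytoskeleton, 1 of 7 tested rose and 2 fell. The plakins Dst and Macf1 fell from 74.5 to 50.6 and from 187 to 159 FPKM, and Ppl, periplakin, rose from 15.9 to 23.5 FPKM. Among motors that carry filaments along the axon, 2 of 10 rose and 1 fell. The dynein intermediate chain Dync1i2 rose from 63.3 to 77.5 FPKM and the kinesin light chain Klc1 from 92.3 to 111, while the kinesin heavy chain Kif5b fell from 119 to 91.9 FPKM. Kif5a, the neuronal kinesin linked to neurofilament transport, stood at 71.6 and 84.7 FPKM and did not pass.

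Of 14 tested kinases, phosphatases and their activators that act on neurofilament tails, 2 rose and 2 fell. Cdk5r1, the p35 activator of Cdk5, rose from 2.00 to 2.89 FPKM and Mapk3 from 38.2 to 42.9, while Mapk10 fell from 63.3 to 52.4 and Rock2 from 12.04 to 10.4 FPKM. Cdk5 itself stood at 19.5 and 19.7 FPKM. Of 7 turnover genes, 2 rose and none fell by Cuffdiff (3 and 0 at an unadjusted p under 0.05). Capn2, a calpain protease that cuts neurofilaments, rose from 1.35 to 6.26 FPKM, and the ubiquitin hydrolase Uchl1 rose from 246 to 339.

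Proteins that bind neurofilament messenger RNA gave 2 rises and 1 fall among 7 tested. The neuronal RNA-binding proteins Elavl4 and Elavl2 rose from 37.4 to 59.2 and from 15.8 to 21.9 FPKM. Arhgef28, listed as Rgnef and known to bind the Nefl message, fell from 68.0 to 51.8 FPKM. Tardbp, which encodes TDP-43, stood at 49.96 and 51.5 FPKM and did not pass. Cytokines of the interleukin-6 family are known inducers of Prph. Of 7 tested genes in a list of receptors and factors upstream of Prph, 1 rose and none fell by Cuffdiff (3 and 2 at an unadjusted p under 0.05), with a median log2 ratio of -0.18. Socs3, a feedback inhibitor of the cytokine receptors, rose from 3.87 to 6.66 FPKM. The signal transducer Stat3 stood at 15.8 and 17.5 FPKM and the shared receptor Il6st at 37.1 and 32.7, and neither passed. The 2 genes lower at an unadjusted Cuffdiff p under 0.05 were Atf3 (1.92 and 1.22 FPKM) and Isl1 (0.643 and 0.313 FPKM). Those higher at that limit were Socs3, Stat3 and Osmr (0.373 and 0.609 FPKM). Of these genes, Socs3 alone passed the q threshold. The cytokine genes Il6 and Lif were not tested, and the higher value of either was 0.057 FPKM, that of Il6 in Nd1.

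**Figure D3:**
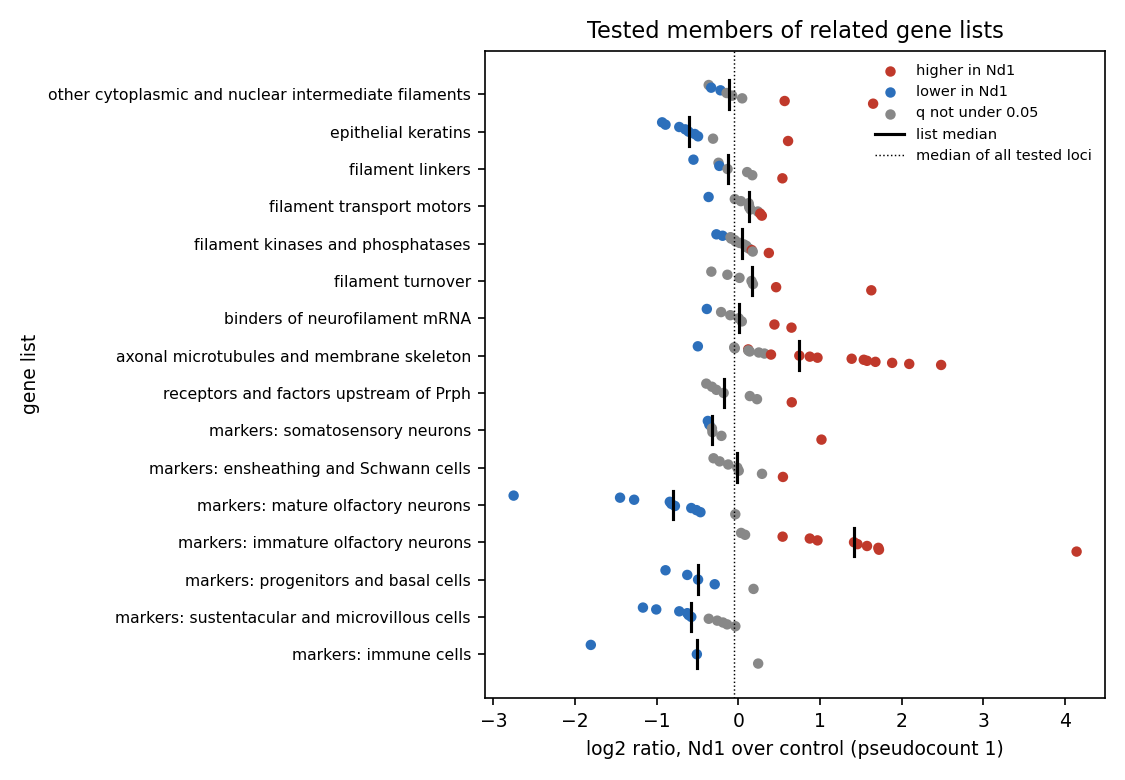
Log2 ratio of Nd1 over control (pseudocount 1) for the tested genes of each list, coloured by the authors' call, with the list median (black bar) and the median of all tested loci (dotted line). The medians of the axonal microtubule list (0.75) and of the immature olfactory neuron markers (1.42) lie to the right, and those of the keratins (-0.61) and of the mature olfactory neuron markers (-0.80) lie to the left. The lists share genes, so they are not independent. Tubb3, Gap43 and Dpysl3 are both axonal and immature neuron genes here. Krt5 and Krt14 are both keratins and basal cell markers, and Krt8 and Krt18 both keratins and sustentacular cell markers.

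Markers of the cells that the sort could hold moved with the comparison. Of 10 tested markers of mature olfactory neurons 9 fell, with a summed level of 15483 FPKM in control and 6149 in Nd1. Omp, whose locus carries the reporter, and tTA in all libraries but the control at 212 days, fell from 4087 to 605 FPKM, Stoml3 from 3425 to 1254, S100a5 from 3542 to 1461 and Adcy3 from 888 to 496 FPKM. Markers of immature olfactory neurons rose in 9 of 11 tested and fell in none by Cuffdiff (9 and 0 at an unadjusted p under 0.05), with a sum of 411 FPKM in control and 761 in Nd1 and no marker at 0. Tubb3, at 247 FPKM in control and 453 in Nd1, made up most of each sum. Gng8 rose from 3.11 to 71.7 FPKM, Nhlh1 from 1.58 to 7.52, Nhlh2 from 0.905 to 5.25 and Dpysl3 from 8.40 to 27.0. In the same list Dcx (55.9 and 57.2 FPKM) and Dpysl5 (25.8 and 27.3 FPKM) did not pass, so the rises do not hold for every marker. Dpysl3, Tubb3 and Gap43, all of which rose, were also counted in the axonal microtubule list. The rises of Prph, Nefm and Nefh thus came together with those of 9 of 11 tested immature neuron markers. The part of immature neurons in the rises was not tested. In pooled cells, more cells of a type and more RNA per cell cannot be told apart.

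Markers of other neurons rich in peripherin or neurofilaments, and of the glia along nerves, were mostly low. Somatosensory neurons, whose fibres run through the nasal mucosa, had 6 of 14 markers tested, of which 1 rose and 2 fell. Their summed level was 271 FPKM in control and 210 in Nd1, nearly all of it from the sodium channel Scn9a (264 and 204 FPKM), which olfactory neurons also express. Pvalb, parvalbumin, rose from 0.164 to 1.36 FPKM, and Avil, advillin, fell from 0.787 to 0.397. Tac1, Trpv1, Trpm8 and Mrgprd were at 0 in control, and the largest of them in Nd1 was Tac1 at 0.044 FPKM. None of 7 autonomic neuron markers was tested, and Th, Hand2 and Slc18a3 were at 0 in each group. Their summed level was 0.283 FPKM in control and 0.110 in Nd1. Of 7 tested markers of ensheathing and Schwann cells, Mbp, a myelin protein, rose from 8.02 to 12.2 FPKM and none fell by Cuffdiff (2 and 0 at an unadjusted p under 0.05). The sum of that list was 13.7 FPKM in control and 17.4 in Nd1, with none at 0.

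Markers of the remaining cell types were lower or did not pass. Progenitor and basal cell markers fell in 4 of 5 tested, from a sum of 14.3 to 7.98 FPKM, among them Trp63 (1.85 to 0.847 FPKM). Sustentacular and microvillous cell markers fell in 6 of 11, from a sum of 174 to 114 FPKM, among them Ascl3 (42.8 to 18.5 FPKM) and Cftr (5.59 to 2.28 FPKM). In the same list Cyp2a5 (30.9 and 28.0 FPKM), Cyp2g1 (15.8 and 15.3 FPKM) and Ermn (0.854 and 0.627 FPKM) did not pass, so the falls do not hold for every marker. Krt8 and Krt18 of that list, and Krt5 and Krt14 of the basal cell list, were also counted among the keratins. Immune cell markers fell in 2 of 3, S100a8 from 9.02 to 1.86 FPKM and Ptprc from 0.490 to 0.047 FPKM, with a sum of 10.3 in control and 3.07 in Nd1.

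Loci beside the 5 genes were counted within 500 kb on each side. Of 69 tested, 8 (11.6%) rose and 14 (20.3%) fell, beside 15.1% and 19.2% of all tested loci. Within 250 kb the shares were 18.4% higher and 18.4% lower of 38 tested, so that the share higher lay below that of all loci in the wider window and above it in the narrower. Around Prph 4 of 29 tested loci rose and 6 fell. The next gene on the side of lower coordinates, Tuba1c, went from 201 to 260 FPKM, and Tuba1b of the same tubulin cluster from 218 to 286. The non-coding 4930578M01Rik went from 2.29 to 9.91 FPKM and Spats2, an RNA-binding protein gene, from 12.9 to 18.9. Troap, the next gene on the other side, was not tested, at 0.067 and 0.128 FPKM. Among the falls were those of Tmbim6, from 759 to 230 FPKM, and Faim2, from 361 to 188, both linked to protection from cell death. The others that fell were Kcnh3, Lmbr1l, Ccdc65 and Adcy6. On the log2 scale with a pseudocount of 1, the ratio of 4930578M01Rik was 1.73 and that of Tmbim6 was -1.72, beside 3.27 for Prph.

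Around Nefm 3 of 7 tested loci rose and 1 fell, Nefl being among those tested. Around Nefl the same 3 loci rose, and Nefm with them. The 3 were A230070E04Rik, Dock5, an exchange factor for Rac (1.37 to 3.79 FPKM), and Kctd9 (8.12 to 13.6 FPKM). A230070E04Rik overlaps Nefm and has the same listed bounds, so it is not a separate neighbour. Adamdec1, a protease gene, fell from 10.9 to 2.17 FPKM, and Gnrh1 (1.68 and 1.88 FPKM) did not pass. Nefl therefore lay between Dock5 and Nefm, both of which rose, without passing itself. Around Nefh 1 of 17 tested loci rose and 5 fell. Thoc5 (14.2 and 12.4 FPKM) did not pass, Gas2l1 fell from 50.5 to 44.6 FPKM and Rasl10a from 1.49 to 0.706, and the other falls were those of Ascc2, Znrf3 and Ccdc117. The rise was that of the Wnt co-receptor gene Kremen1, from 4.48 to 8.38 FPKM. Around Ina none of 17 tested loci rose by Cuffdiff (0 also at an unadjusted p under 0.05). The 2 that fell were Nt5c2 and Pcgf6 (11.7 to 9.14 FPKM), while Cnnm2 stood at 0.957 and 0.944 FPKM. Nt5c2 overlaps Ina and has the same listed bounds. Ap1b1, counted among the 17 tested around Nefh, likewise overlaps Nefh and shares its bounds. Neither is therefore a separate neighbour.

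**Figure D4:**
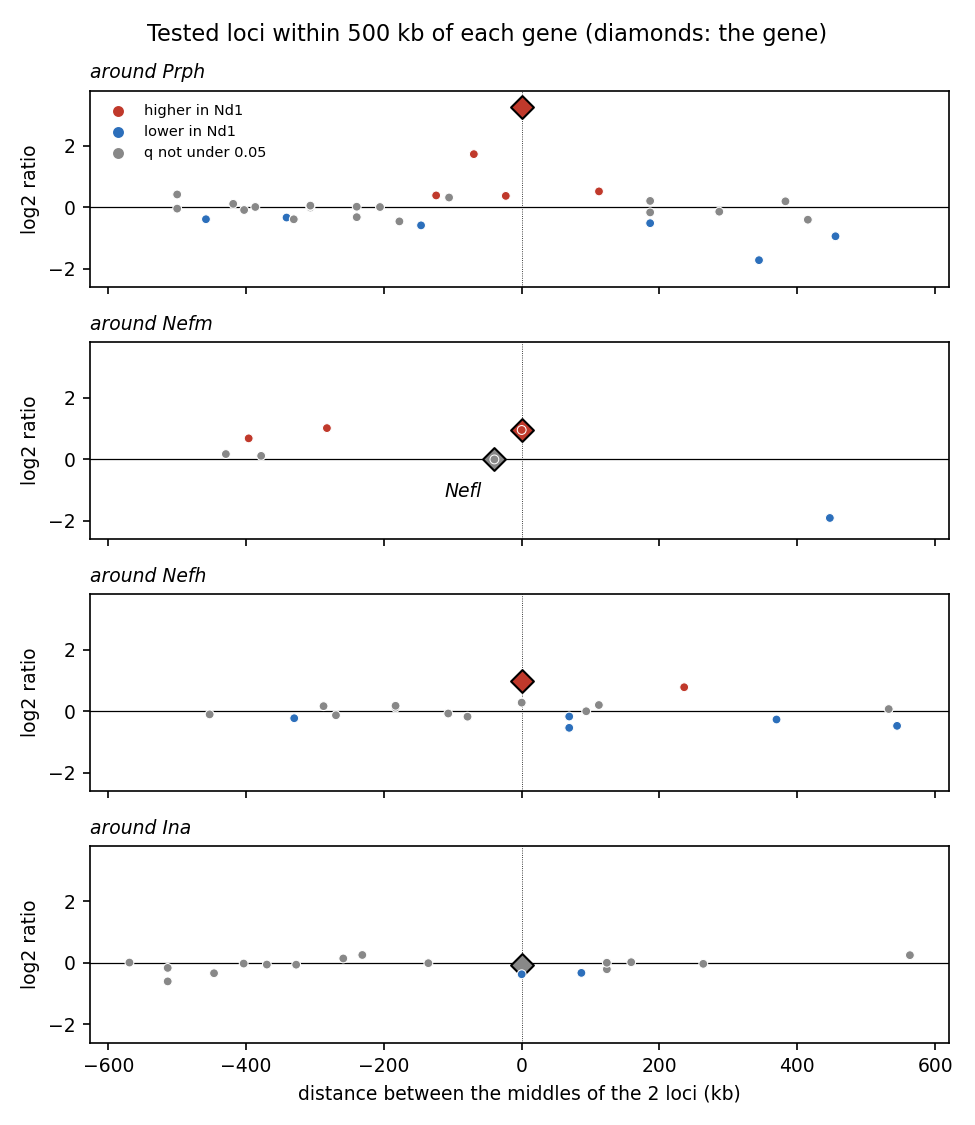
Log2 ratio of Nd1 over control (pseudocount 1) for tested loci within 500 kb of Prph, Nefm, Nefh and Ina, by the distance between the middles of the loci, with the genes themselves as diamonds, the window measured from the edges of the loci, and A230070E04Rik as the dot on the diamond of Nefm. Prph at 3.27 stands above all its neighbours, Nefl (-0.0078) lies beside Nefm (0.94), and around Ina no locus rose. Ap1b1 and Nt5c2, which share the listed bounds of Nefh and Ina, are the dots at distance 0 in those panels.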

How the data were processed

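The authors deposited 1 table with pooled FPKM values for control and Nd1, made with Cuffdiff 1.3.0 and Bowtie on mm9, per the submitters' processing notes. The authors' log2 fold change, p-value and q-value stand beside them, per the file headers, and the title line calls the controls littermates. The listed q-values match a Benjamini-Hochberg adjustment over the 14841 tested loci. Depth per library is unknown, so no interval is given. A limma fit was planned only for values per library, so no new test was run.

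From the deposited FPKM, ratios, ranks and shares were computed with pandas 2.3.3, with a pseudocount of 1, which understates changes of low genes. Scaling functions were tested on simulated data. For symbols listed more than once the locus with the larger mean FPKM was taken, and entries joining several symbols did not enter the lists. Starts are the table's plus 1. The members, lists and alternatives were chosen with earlier results of these data known. The naming rule takes the 5 genes, up to 4 called genes per list by size of log2 ratio, the 3 genes nearest in level to each called member, the nearest loci on each side, and Omp. Krt10, Stmn4, the genes named as shared between lists and those quoted as not passing or not tested were named beyond it. They were chosen after their values were seen, as were the neighbours other than the nearest. Other list genes enter the counts only, and a few genes are not reported here at all.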

Additional observations from a re-analysis of the deposited data

How the results depend on the processing

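The count of 3 members higher in Nd1 was also 3 at q under 0.01, at 2-fold or more, and with p-values adjusted outside the odorant receptors. With a minimum mean of 1 FPKM it was 2, since Nefm lies just below that limit. The pseudocount moved the low genes, as its construction implies: the log2 ratio of Nefm was 0.94 with 1, 1.89 with 0.1 and 2.15 with none, and that of Nefh was 0.98 with 1 and 1.58 with none. Of the loci near the 5 genes, 14 were lower and 8 higher of 69 tested within 500 kb, and 7 lower and 7 higher of 38 tested within 250 kb, which took the share higher from 11.6% to 18.4%. Weighting FPKM by coding length raised the share of Nefh among the 5 from 2.63% to 5.47% in control and from 1.23% to 2.59% in Nd1, and that of Nefm from 1.00% to 1.62% and from 0.69% to 1.14%. No paired analysis was possible because the table holds a single pooled value per group, and for the same reason no replicate could be left out. Depth is unknown, so its effect on Nefl, Nefm and Nefh, all under 3 FPKM, could not be measured.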
